A study of Mus musculus with 57 samples.

Results

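The genes described here are 8 cardiac ion channel and connexin genes, chosen by symbol in the count tables of both mouse heart studies: *Kcnd2*, *Kcnip2* and *Kcna5*, whose products carry or assist repolarizing voltage-gated potassium currents, *Kcnj2* and *Kcnj3*, which encode inward rectifier potassium channel subunits, *Kcnq1*, a subunit of the slow delayed rectifier, *Hcn4*, a pacemaker channel, and *Gja1*, the main connexin of the ventricle. They are 8 of 25416 genes in the acute table and of 54658 in the chronic table, and all 8 were among the 14240 acute and 14960 chronic genes with enough counts to be tested. No sodium channel gene is among them, and the other genes of these families are given as counts.

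Poly(A) RNA of frozen heart samples, with the part of the heart not stated, of male wild-type C57BL6/J (B6) mice was sequenced after doxorubicin (Doxo), an anthracycline chemotherapy drug known for cardiotoxicity, with or without nicotinamide mononucleotide (NMN), a precursor of NAD+. The acute study had 14 Ctrl hearts of mice given vehicle, 13 Doxo hearts taken on day 5 after 1 i.p. injection of 20 mg/kg Doxo, and 13 Doxo-NMN hearts of mice that received this injection too and, beginning 5 days earlier, NMN i.p. at 180 mg/kg/day. These mice were bought at 9 weeks of age, and only mice alive on day 5 gave hearts. The chronic study had 5 Ctrl hearts, 6 Doxo hearts and 6 Doxo-NMN hearts of mice that were 14 to 16 weeks old at the first injection. These mice received vehicle or 5 i.p. injections of 4 mg/kg Doxo (cumulative dose 20 mg/kg), without or with 500 mg/kg/day NMN in the drinking water. NMN began 5 days before the first injection, and hearts were taken 60 days after the first injection. Each library was 1 heart by the study's methods, and p-values measure the spread between hearts. The studies asked how Doxo and NMN alter the heart transcriptome, and within each study all 3 pairs of groups were compared.

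Each heartbeat starts in pacemaker cells, where HCN channels pass the inward funny current, and spreads from cell to cell through gap junctions built of connexins. The action potential of a myocyte is then ended by outward potassium currents. In mouse ventricle a transient outward current does much of this work: *Kcnd2* encodes its pore subunit and *Kcnip2* the calcium-binding partner that brings this subunit to the membrane. *Kcna5* encodes the channel of an ultrarapid current, *Kcnj2* that of the inward rectifier that sets the resting potential, and *Kcnj3* an acetylcholine-activated channel that is most abundant in atria and nodal tissue. These genes are best known in cardiology for arrhythmias, and changes of their transcripts accompany many forms of heart failure.

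Of the members that were lower in acute Doxo hearts, the promoters of *Kcnd2*, *Hcn4* and *Kcna5* are shown, but not those of *Kcnj2* and *Kcnj3*. With them is the promoter of *Kcnip2*, the partner of *Kcnd2*, which did not pass the test. Each is the 250 bases before the RefSeq start, 5′ to 3′ on the strand of the gene, in GRCm38.p6: chr6:21215096-21215345 (+) for *Kcnd2*, chr9:58822699-58822948 (+) for *Hcn4*, chr6:126535556-126535805 (−) for *Kcna5* and chr19:45816064-45816313 (−) for *Kcnip2*. Capitals mark the matches to 8 searched motifs on either strand.
Kcnd2: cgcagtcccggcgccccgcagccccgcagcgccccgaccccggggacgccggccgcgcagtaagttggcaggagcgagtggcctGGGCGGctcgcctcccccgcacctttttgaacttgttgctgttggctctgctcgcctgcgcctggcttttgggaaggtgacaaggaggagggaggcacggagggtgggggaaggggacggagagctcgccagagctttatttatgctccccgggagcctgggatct
Hcn4: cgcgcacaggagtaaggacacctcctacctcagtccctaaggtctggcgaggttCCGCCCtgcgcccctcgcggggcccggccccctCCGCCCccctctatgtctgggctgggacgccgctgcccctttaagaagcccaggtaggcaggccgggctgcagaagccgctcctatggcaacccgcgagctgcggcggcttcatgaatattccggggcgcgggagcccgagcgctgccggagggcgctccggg
Kcna5: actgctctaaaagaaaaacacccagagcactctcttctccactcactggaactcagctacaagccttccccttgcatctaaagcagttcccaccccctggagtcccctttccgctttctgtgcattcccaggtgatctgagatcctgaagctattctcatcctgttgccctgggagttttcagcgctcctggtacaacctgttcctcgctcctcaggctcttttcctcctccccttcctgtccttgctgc
Kcnip2: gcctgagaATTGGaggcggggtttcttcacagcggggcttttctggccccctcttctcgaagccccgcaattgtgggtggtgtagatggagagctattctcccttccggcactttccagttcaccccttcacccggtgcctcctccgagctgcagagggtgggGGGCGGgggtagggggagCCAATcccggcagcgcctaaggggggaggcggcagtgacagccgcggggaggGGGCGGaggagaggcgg
RefSeq promoters were matched for 7 of the 8 members, without *Kcnq1*. The GC box GGGCGG, a motif bound by Sp-family factors, was found in 4 of the 7 (*Kcnd2*, *Hcn4*, *Kcnip2* and *Kcnj2*) and in 32.7% of all 32851 promoters. The CCAAT box CCAAT was found in *Kcnip2*, *Kcnj2* and *Kcnj3* (33.8% of all promoters), and a TATA box TATAAA in none of the 7 (12.4% of all promoters). *Kcnj2* held the E box CACGTG (6.02%), *Kcnj2* and *Kcnj3* the E box CAGCTG (13%), and *Gja1* the GATA motif AGATAA (9.99%), the AP-1 motif TGANTCA (6.75%) and the cAMP response motif TGACGT (6.47%). Each motif was counted on its own, so matches to different motifs may share bases. The promoters of *Kcnd2* and *Hcn4* were rich in G and C (68.8% and 71.2%), while *Kcna5*, which held no searched motif, had 53.2%. Whether any of these motifs bears on the levels of the members was not tested.

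Acute libraries held 32409622 to 52102850 counts and chronic libraries 17769886 to 23862287, and members had between 50 and 19103 counts in every acute heart and between 75 and 11593 in every chronic heart. Levels are given as CPM, counts scaled to the library size and by the TMM factors of the study, so that 3 counts, the smallest value taken as detectable, amount to between 0.0576 and 0.0926 CPM in acute and between 0.126 and 0.169 CPM in chronic hearts, for counting error only. Of the acute counts from 1 to 20, 73.7% were even numbers, against 40.3% in the chronic table. Whether some acute reads were counted more than once was not tested, and the counting error of acute values would then be larger than their counts give. Markers of cardiomyocytes (*Myh6*, *Myl2*, *Tnnt2*, *Actc1*) were abundant in every heart. Those of atrial cardiomyocytes (*Myl4*, *Myl7*, *Sln*, *Bmp10*) summed to between 4.23 and 3782 CPM in acute Ctrl hearts, and 8 Ctrl, 5 Doxo and 4 Doxo-NMN acute hearts had at least 100 CPM of *Myl4*. In the chronic study no heart reached this limit, so the acute libraries differed in how much atrial tissue marker RNA they held. Red blood cell marker sums fell from between 342 and 3417 CPM in acute Ctrl hearts to between 0.86 and 264 CPM in Doxo hearts, and their part in the members' values was not tested. On an axis from the mean of Ctrl (0) to the mean of Doxo hearts (1) over all tested genes, Doxo replicate 6 of the acute study sat at 0.05, among the Ctrl hearts, and results that rest on it are also given without it. Chronic Ctrl replicate 1 was the lowest Ctrl heart for 7 of the 8 members.

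Compared per exon length (RPKM, CPM per kb of exon), *Kcnip2* was the most abundant member in acute Ctrl hearts (42.8 ± 8.71 RPKM, SD, n = 14), followed by *Gja1* (35.7 ± 4.88 RPKM). *Kcnj3* (22.4 ± 9.45 RPKM) and *Kcnj2* (11.1 ± 1.51 RPKM) came next. The range of each of these genes over the Ctrl hearts overlapped with that of its neighbour in the order. Compared within hearts, however, *Kcnj3* was above *Kcnj2* in every Ctrl heart, such as 11.7 against 11.1 RPKM in replicate 1. *Kcnq1* (8.75 ± 0.55 RPKM), *Kcna5* (8.65 ± 2.0 RPKM) and *Kcnd2* (7.31 ± 1.22 RPKM) also overlapped with each other and with *Kcnj2*. *Hcn4* was the lowest with 2.16 ± 0.44 RPKM, below the lowest Ctrl heart of every other member. This order depends on the exon lengths, taken from GENCODE M21, while the annotation used for counting is not stated. *Gja1* has 10.26 kb of exon there and *Kcnip2* 3.48 kb. By CPM *Gja1* was above *Kcnip2* (means of 366 and 149 CPM in acute Ctrl hearts). 

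In acute Doxo hearts 5 of the 8 members fell by at least 1.5-fold (edgeR quasi-likelihood F-test, adjusted p under 0.05) and none rose. The 5 were *Kcnd2* and *Kcna5* among the repolarizing channels, both inward rectifiers (*Kcnj2* and *Kcnj3*) and the pacemaker channel *Hcn4*, while *Kcnip2*, *Kcnq1* and *Gja1* did not pass. Of all tested genes 30.1% were called in this comparison in either direction, and 15.4% were called lower. The median log2 fold change over the 8 members was −0.81, against −0.00 over all tested genes. In no member did the Ctrl and Doxo hearts separate completely, as they did in 0.906% of tested genes. Cardiomyocyte markers moved in the same hearts. Of these, 3 of 4 passed the test lower, such as *Actc1* (7415 ± 1132 CPM in Ctrl and 3050 ± 2322 CPM in Doxo hearts), and *Tnnt2* passed higher. Whether the members fell through fewer myocytes or less RNA per myocyte cannot be told apart in bulk heart RNA, and the part of these markers was not tested.

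**Figure D1:**
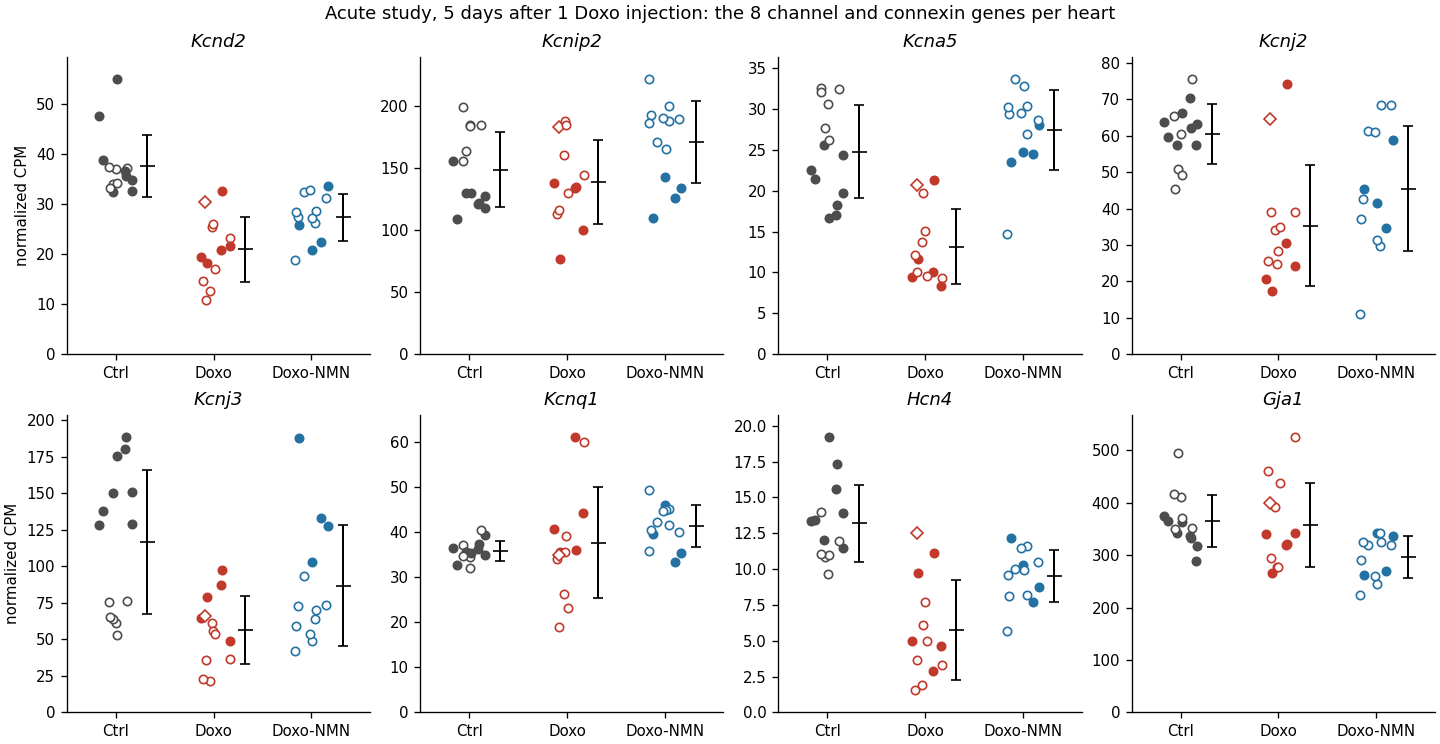
Normalized CPM (vertical axis, from 0) of the 8 members in each acute heart, by group (Ctrl grey, 14 hearts; Doxo red, 13; Doxo-NMN blue, 13). Filled points are hearts with at least 100 CPM of the atrial marker Myl4, the diamond is Doxo replicate 6, and black bars are the mean ± SD; 12 of 13 Doxo hearts lie below every Ctrl heart for Kcnd2, while the groups interleave for Kcnq1 and Gja1.

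*Kcnd2* (chr6:21215503-21729805, plus strand, GRCm38) lay between 32.5 and 55.1 CPM in Ctrl hearts (median 36.2), between 10.8 and 32.7 CPM in Doxo hearts (median 20.9) and between 18.8 and 33.7 CPM in Doxo-NMN hearts (median 27.5). All but 1 of the Doxo hearts, 12 of 13, were below the lowest Ctrl heart. Doxo against Ctrl gave a log2 fold change of −0.84 (SE 0.12, adjusted p = 2.36e-07).

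Its partner *Kcnip2* (chr19:45791839-45816061, minus strand) ranged from 109 to 199 CPM in Ctrl (median 143), from 76.5 to 188 CPM in Doxo (median 135) and from 110 to 221 CPM in Doxo-NMN hearts (median 187). Ctrl and Doxo hearts overlapped in large part, and their log2 difference of −0.10 did not pass (95% confidence interval −0.34 to 0.14, adjusted p = 0.453). *Kcnip2* was lower in hearts with more atrial marker RNA, however (Pearson r = −0.75 with the mean log2 level of the 4 atrial markers over 40 acute hearts), and with that level as a covariate the difference was −0.22 (adjusted p = 0.0123). Within the hearts under 100 CPM of *Myl4* it was −0.24 (adjusted p = 0.0623). Since *Kcnd2* fell and *Kcnip2* did not pass, the ratio of their RPKM within each heart was also described. It was 5.99 ± 1.54 in Ctrl (SD, n = 14), 10.4 ± 3.57 in Doxo (n = 13) and 9.43 ± 2.32 in Doxo-NMN hearts (n = 13). All 13 Doxo hearts and all 13 Doxo-NMN hearts were above the Ctrl median of 5.66, and 10 and 8 of them, respectively, were above the highest Ctrl heart (8.87). In hearts under 100 CPM of *Myl4* the mean log2 ratio was 0.66 higher in Doxo than in Ctrl, and in the other hearts it was also 0.66 higher. No test was made of this ratio, which was chosen after the values were seen.

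**Figure D2:**
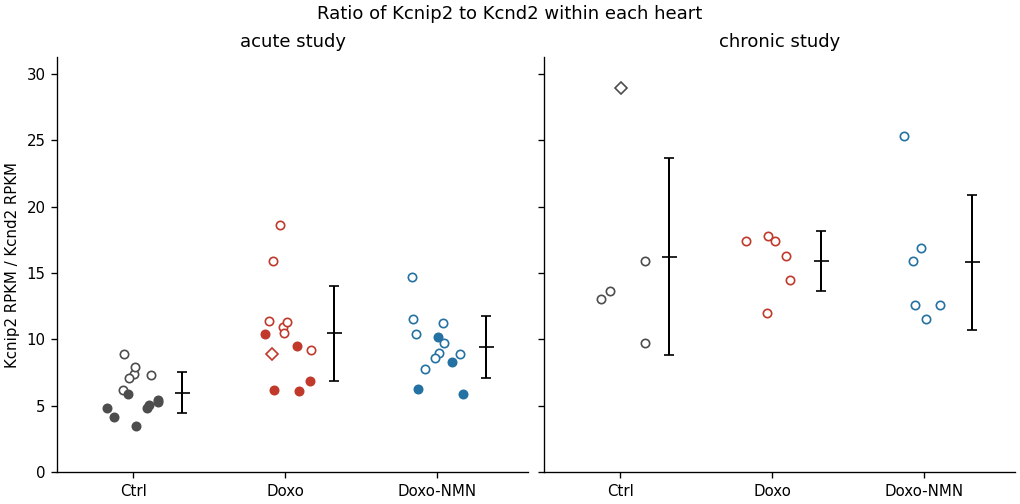
Ratio of Kcnip2 RPKM to Kcnd2 RPKM (vertical axis, no unit) in each heart of the acute (left) and chronic (right) study, by group, with the mean ± SD as black bars. Filled points have at least 100 CPM of Myl4; diamonds are acute Doxo replicate 6 and chronic Ctrl replicate 1. Acute Doxo and Doxo-NMN hearts lie mostly above the Ctrl hearts, and the chronic Ctrl diamond is the highest heart at 28.9.

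*Kcna5* (chr6:126532551-126535412, minus strand) ranged from 16.7 to 32.5 CPM in Ctrl hearts (median 24.9), from 8.30 to 21.2 CPM in Doxo hearts (median 11.6) and from 14.7 to 33.6 CPM in Doxo-NMN hearts (median 28.6). Doxo hearts were low, 10 of 13 of them below every Ctrl heart. The lowest Doxo-NMN heart was replicate 10 (14.7 CPM), and the other Doxo-NMN hearts lay between 23.5 and 33.6 CPM. The log2 fold change was −0.91 (SE 0.14, adjusted p = 6.92e-07), −1.15 among hearts under 100 CPM of *Myl4* and −0.76 among the others.

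The inward rectifier *Kcnj2* (chr11:111066164-111076821, plus strand) ranged from 45.4 to 75.6 CPM in Ctrl (median 61.2), from 17.5 to 74.1 CPM in Doxo (median 30.4) and from 11.1 to 68.4 CPM in Doxo-NMN hearts (median 42.7). It was below every Ctrl heart in 11 of 13 Doxo hearts. The exceptions were replicates 6 (64.5 CPM) and 7 (74.1 CPM), which stood within the Ctrl range. The log2 fold change was −0.78 (SE 0.19, adjusted p = 0.000553).

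*Kcnj3* (chr2:55435970-55598145, plus strand) ranged from 53.3 to 189 CPM in Ctrl (median 129), from 21.6 to 97.7 CPM in Doxo (median 55.8) and from 42 to 188 CPM in Doxo-NMN hearts (median 72.7). The level followed the atrial markers (r = 0.72 over 40 hearts, 0.80 after subtracting group means), and Ctrl hearts fell into a high and a low set. The log2 fold change over all hearts was −1.06 (SE 0.24, adjusted p = 0.000224). Among hearts with at least 100 CPM of *Myl4*, *Kcnj3* lay between 128 and 189 CPM in Ctrl (n = 8) and between 48.6 and 97.7 CPM in Doxo hearts (n = 5). The log2 fold change there was −1.03 (edgeR adjusted p = 3.53e-05). These Ctrl hearts also held more *Myl4* (799 to 1593 CPM) than these Doxo hearts (251 to 591 CPM), so this set was not matched for atrial content. The share of tested genes without overlap in this set was not computed. Among hearts under this limit the log2 fold change was −0.59 (edgeR adjusted p = 0.0263), and with the atrial level as a covariate −0.73 (adjusted p = 4.2e-05). The antisense gene *Gm26794* shares 1621 exon bases with *Kcnj3*, 31.1% of its exon length, and the sources used here do not state whether the counting used strand. In chronic hearts *Gm26794* itself had at most 0.33 CPM as a group mean, far below *Kcnj3*.

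**Figure D3:**
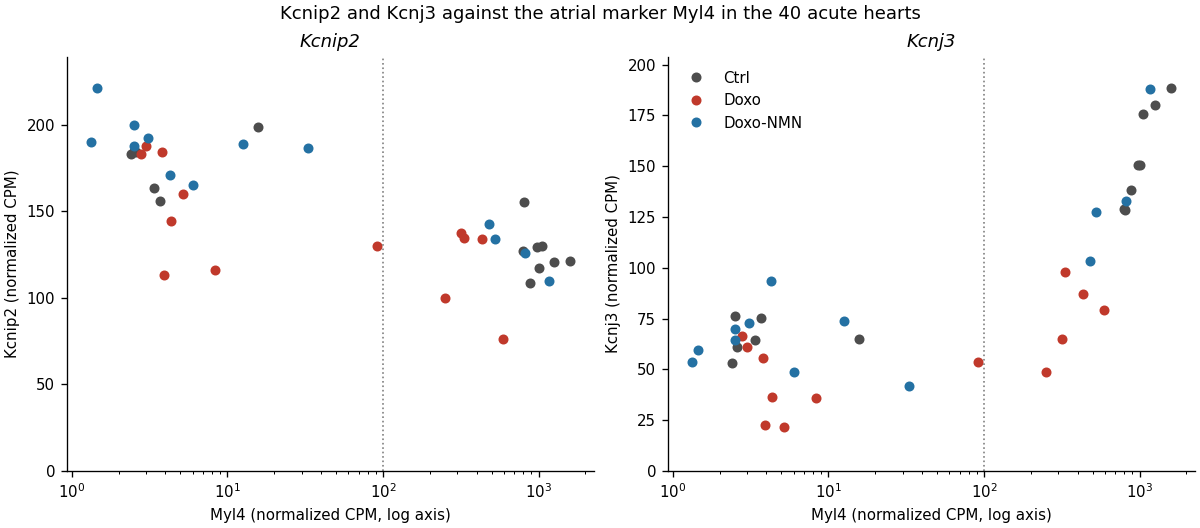
Normalized CPM of Kcnip2 (left) and Kcnj3 (right) against the atrial marker Myl4 (horizontal log axis, normalized CPM) in the 40 acute hearts, coloured by group; the dotted line is the limit of 100 CPM. Kcnip2 is lower and Kcnj3 higher to the right of the line. For Kcnj3, Doxo hearts (red) to the right of it lie below all Ctrl hearts (grey) there, and also at lower Myl4. To the left they overlap with Ctrl hearts (21.6 to 66.3 CPM against 53.3 to 76.3 CPM).

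The pacemaker channel gene *Hcn4* (chr9:58823412-58863175, plus strand) was among the members that fell. It ranged from 9.68 to 19.2 CPM in Ctrl hearts (median 12.7), from 1.53 to 12.5 CPM in Doxo hearts (median 4.95) and from 5.66 to 12.2 CPM in Doxo-NMN hearts (median 9.97). Of the Doxo hearts 10 of 13 were below the lowest Ctrl heart, and the highest was replicate 6. The log2 fold change was −1.19 (SE 0.21, adjusted p = 5.59e-06), −1.34 without replicate 6, and −1.14 and −1.11 among hearts with low and high *Myl4*. Markers of sinoatrial and conduction cells differed in level: *Isl1* and *Vsnl1* had group means of at most 0.53 CPM. The transcription factor *Tbx3* was measured at 17 ± 2.28 CPM (Ctrl), 13.9 ± 4.47 CPM (Doxo) and 18 ± 2.53 CPM (Doxo-NMN). *Shox2* averaged at most 1.78 CPM. Neither of the markers with enough counts to be tested (*Tbx3* and *Shox2*) passed in Doxo vs. Ctrl, and their part in the *Hcn4* values was not tested.

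Neither *Kcnq1* nor *Gja1* passed in Doxo vs. Ctrl. *Kcnq1* (chr7:143106362-143427042, plus strand) ranged from 31.9 to 40.5 CPM in Ctrl (median 35.5), from 18.8 to 61.0 CPM in Doxo (median 35.5) and from 33.2 to 49.2 CPM in Doxo-NMN hearts (median 41.6). The Doxo hearts spread to both sides of the Ctrl range, 3 below and 4 above it, so that the coefficient of variation was 32.8% in Doxo against 6.34% in Ctrl hearts. The mean difference was 0.07 on the log2 scale (95% confidence interval −0.15 to 0.29, adjusted p = 0.575), and among hearts of at least 100 CPM of *Myl4* it was 0.29 (adjusted p = 0.0301). *Kcnq1* shares 121 exon bases with the antisense RNA *Kcnq1ot1*, whose acute group means lay between 11.3 and 13 CPM.

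*Gja1* (chr10:56377330-56402513, plus strand) ranged from 288 to 494 CPM in Ctrl (median 358), from 266 to 526 CPM in Doxo (median 341) and from 225 to 343 CPM in Doxo-NMN hearts (median 319). Ctrl and Doxo hearts covered nearly the same range. The log2 difference in Doxo vs. Ctrl was −0.03 (95% confidence interval −0.21 to 0.15, adjusted p = 0.782).

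In Doxo-NMN vs. Doxo, which shares the Doxo hearts with the comparison above, 5 members passed the test higher, *Gja1* passed lower, and *Kcnj2* and *Kcnq1* did not pass. Of all tested genes 25.7% passed higher and 27.4% lower. Markers moved in this comparison too. Of the cardiomyocyte markers 3 of 4 passed higher and 1 lower (marker sums of 23086 to 64205 CPM in Doxo and 30659 to 70916 CPM in Doxo-NMN hearts). Also, 1 of 2 tested sinoatrial and conduction markers passed higher, and 3 of 4 red blood cell markers passed lower. Their part in the members' values was not tested. At the cutoff of 1.5-fold 3 members were called higher (*Kcna5*, *Hcn4* and *Kcnj3*), against 8.17% of tested genes called higher and 17.1% called in either direction.

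*Kcna5* had the largest difference of the members (log2 fold change 1.06, SE 0.14, adjusted p = 8.42e-07): 12 of 13 Doxo-NMN hearts were above the highest Doxo heart (0.0562% of tested genes had no overlap at all), and 0.646% of all tested genes had a smaller p. The exception was replicate 10, with 14.7 CPM, which was also the lowest Doxo-NMN heart for 6 of the 8 members. The difference was 1.05 among hearts with low and 1.04 among hearts with high *Myl4*. *Hcn4* was higher by 0.72 (SE 0.21, adjusted p = 0.00438) with no Doxo-NMN heart above the highest Doxo heart, and by 0.52 among hearts of at least 100 CPM of *Myl4*, where it did not pass (adjusted p = 0.144). *Kcnj3* was higher by 0.63 (SE 0.24, adjusted p = 0.0287), 1.54-fold and so just past the cutoff.

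*Kcnd2* (log2 fold change 0.38, SE 0.12, adjusted p = 0.00963) and *Kcnip2* (0.30, SE 0.12, adjusted p = 0.0354) passed without reaching 1.5-fold, so that the ratio between them stayed within 1 SD of the Doxo value. Among hearts of at least 100 CPM of *Myl4* neither passed (0.17, adjusted p = 0.471, and 0.12, adjusted p = 0.5). *Kcnj2* differed by 0.37 (95% confidence interval −0.03 to 0.76, adjusted p = 0.109), by 0.47 (adjusted p = 0.0329) without Doxo replicate 6 and by 0.46 (adjusted p = 0.0226) without Doxo-NMN replicate 10. *Gja1* was lower in Doxo-NMN hearts by 0.27 on the log2 scale (−0.27, SE 0.093, adjusted p = 0.0142), with 4 of 13 hearts below the lowest Doxo heart, but not among hearts of at least 100 CPM of *Myl4* (−0.08, adjusted p = 0.519). Its direction was opposite to that of the 5 members that passed higher.

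Against Ctrl, *Kcnd2* (log2 fold change −0.46, SE 0.12, adjusted p = 0.00498) and *Gja1* (−0.30, SE 0.091, adjusted p = 0.0137) passed lower in Doxo-NMN hearts, and no member was called at 1.5-fold. *Kcnd2* did not pass among hearts under 100 CPM of *Myl4* (−0.34, adjusted p = 0.211), nor *Gja1* among the other hearts (−0.17, adjusted p = 0.257). Of all tested genes 11.1% passed lower and 7.11% were called in either direction. *Kcnd2* was below the lowest Ctrl heart in 11 of 13 Doxo-NMN hearts. *Kcna5* differed from Ctrl by 0.15 (95% confidence interval −0.13 to 0.43), *Kcnj2* by −0.41 (−0.80 to −0.02, adjusted p = 0.109), *Kcnj3* by −0.43 (−0.91 to 0.05) and *Hcn4* by −0.47 (−0.89 to −0.05, adjusted p = 0.0861). The intervals of *Hcn4* and *Kcnj2* lay below 0 although neither passed after adjustment, and that of *Kcna5* reached no lower than −0.13.

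**Figure D4:**
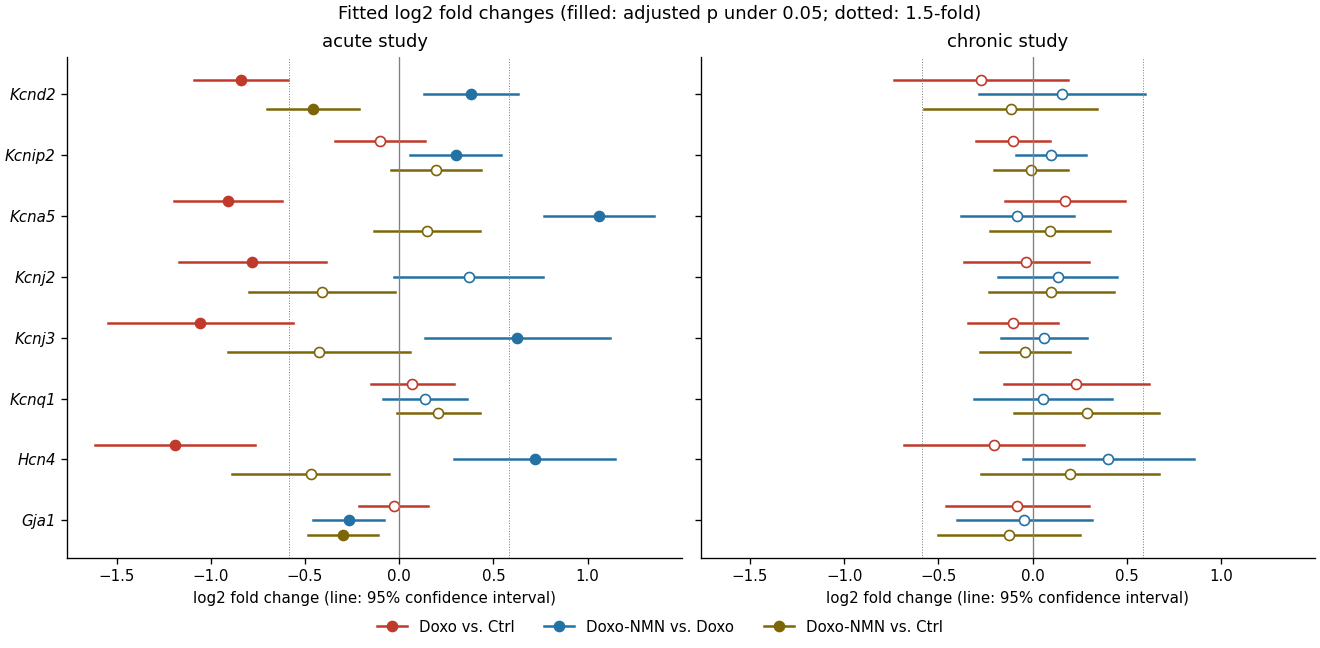
Fitted log2 fold changes (horizontal axis) with their 95% confidence intervals for the 8 members in the acute (left) and chronic (right) study, 3 comparisons each. Filled points have an adjusted p under 0.05 and dotted lines mark 1.5-fold; filled points occur in the acute panel only, and Kcna5 has the largest Doxo-NMN vs. Doxo value (1.06).

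Some of the members varied together from heart to heart in the acute study. Over 40 hearts the log2 CPM of *Kcnd2* and *Hcn4* had r = 0.83, and 0.65 after subtracting the group means. *Kcnj3* and *Hcn4* had r = 0.75 (0.60 within groups). *Kcnip2* and *Kcnj3* went opposite ways (r = −0.31, and −0.54 within groups), *Gja1* was at −0.31 within groups with both *Kcnj3* and *Hcn4*, and *Gja1* was near 0 with *Kcna5* (r = −0.14) and *Kcnq1* (r = −0.09). The gene most like each member by the same measure, among 14239 others, was *Ces1d* for *Kcnd2* (r = 0.90), *Fam78a* for *Hcn4* (r = 0.95), *Ptgfr* for *Kcnj3* (r = 0.95), *Hemk1* for *Kcna5* (r = 0.94), *Cenpf* for *Kcnj2* (r = 0.86), *Mrpl15* for *Kcnip2* (r = 0.85), *Memo1* for *Gja1* (r = 0.79) and *Osbp2* for *Kcnq1* (r = 0.73). The mean of *Fam78a* was 24.8 CPM for Ctrl, 6.30 CPM for Doxo and 14.3 CPM for Doxo-NMN hearts. These correlations are descriptions over hearts that share their treatment groups and their sequencing site and differ in atrial content.

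Of the other potassium, pacemaker and sodium channel and connexin genes, 71 of 122 were tested in the acute study. In Doxo vs. Ctrl 30 passed lower and 14 higher, against 33.3% and 34.8% of all tested genes (68.1% together), with a median log2 fold change of −0.25. By family, 21 of 51 potassium channel genes passed lower and 11 higher, 5 of 10 sodium channel genes lower and 2 higher, 3 of 8 connexin genes lower and 1 higher, and 1 of 2 pacemaker channel genes lower. The inward rectifier gene *Kcnj14* fell at a low level (0.99 and 0.26 CPM, −1.87, adjusted p = 2.43e-06). The genes with the smallest adjusted p among those that rose were *Kcnt1*, a sodium-activated potassium channel (0.49 ± 0.18 CPM in Ctrl and 2.76 ± 1.06 CPM in Doxo hearts, log2 fold change 2.47), *Kcnc1* (1.83) and *Kcne4*, an accessory subunit that can inhibit other potassium channels (2.20 ± 0.34 and 5.73 ± 3.92 CPM, 1.37).

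In Doxo-NMN vs. Doxo 20 of the 71 passed higher and 11 lower, against 25.7% and 27.4% of all tested genes. *Kcnn2*, a calcium-activated potassium channel gene, was higher in Doxo-NMN hearts (13.4 ± 3.05 against 7.70 ± 2.76 CPM, log2 fold change 0.80, adjusted p = 2.53e-05), as were *Kcnv2* (19.6 ± 6.62 against 7.08 ± 6.12 CPM, 1.46) and *Kcna6* (1.05 ± 0.27 against 0.53 ± 0.32 CPM, 0.98). *Kcne4* was lower (2.16 ± 0.44 CPM, −1.41, adjusted p = 1.38e-05), and so were *Kcnt1* (1.17 ± 0.75 CPM, −1.24) and the sodium channel gene *Scn3a* (2.77 ± 0.52 against 4.25 ± 1.32 CPM, −0.61). In Doxo-NMN vs. Ctrl 7 passed higher and 7 lower, against 2129 and 1576 of all 14240 tested genes.

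In the chronic study 0 of the 8 members passed in any comparison, and 0 had an unadjusted p under 0.05 by edgeR; DESeq2 also called 0. Across all tested genes 9 passed in Doxo vs. Ctrl (0.0602%), 0 in Doxo-NMN vs. Doxo (0%) and 6 in Doxo-NMN vs. Ctrl (0.0401%), while 7.85%, 2.95% (441 genes) and 4.73% had an unadjusted p under 0.05. None of the 63 other tested genes of the families passed.

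*Kcnd2* had 7.6, 29.1, 21.2, 17.6 and 20.3 CPM in Ctrl replicates 1 to 5, between 14 and 19.7 CPM in Doxo hearts (median 15) and between 12 and 21.4 CPM in Doxo-NMN hearts (median 18.1). The Ctrl hearts enclosed both other groups, because replicate 1 was the lowest and replicate 2 the highest of all 17 hearts. The log2 fold change in Doxo vs. Ctrl was −0.27 (95% confidence interval −0.74 to 0.19, adjusted p = 0.772) and lay between −0.48 and −0.07 when each heart was left out in turn.

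*Kcna5* had 36.8, 34.7, 30.2, 39.9 and 33 CPM in the chronic Ctrl hearts, between 21.7 and 47.5 CPM in Doxo hearts (median 42.6) and between 31.9 and 42.2 CPM in Doxo-NMN hearts (median 38.1). Of the Doxo hearts 4 of 6 were above and 1 was below the Ctrl range. The log2 fold change was 0.17 (−0.14 to 0.49, adjusted p = 0.787).

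*Hcn4* had 4.1, 13, 10.5, 9.0 and 9.8 CPM in Ctrl hearts, between 5.92 and 10.4 CPM in Doxo hearts (median 8.35) and between 6.66 and 13 CPM in Doxo-NMN hearts (median 11.8). In Doxo-NMN vs. Doxo, 4 of 6 hearts were above the highest Doxo heart, and the log2 fold change of 0.40 (−0.05 to 0.86) had an adjusted p of 0.999. *Gja1* had 292, 559, 527, 464 and 564 CPM in Ctrl hearts, between 253 and 543 CPM in Doxo hearts (median 485) and between 337 and 514 CPM in Doxo-NMN hearts (median 451). Ctrl replicate 1 and Doxo replicate 2 lay well below the rest of their groups. *Kcnq1* had 20.5, 41.2, 37.2, 33.8 and 38.6 CPM in Ctrl hearts, with medians of 38.8 CPM (Doxo) and 43.6 CPM (Doxo-NMN).

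*Kcnip2*, *Kcnj2* and *Kcnj3* were the steadiest members in chronic Doxo hearts, with coefficients of variation of 5.31%, 7.58% and 4.47%. *Kcnip2* had 149, 190, 186, 189 and 187 CPM in Ctrl hearts and medians of 167 CPM (Doxo) and 182 CPM (Doxo-NMN). *Kcnj2* had 16.7, 42.5, 35, 30.5 and 34.1 CPM in Ctrl hearts and medians of 31.6 CPM (Doxo) and 34.8 CPM (Doxo-NMN). *Kcnj3* had 30.6, 56.2, 42.6, 38.8 and 37.7 CPM in Ctrl hearts and medians of 38.2 CPM (Doxo) and 39.2 CPM (Doxo-NMN). Over the 8 members the 95% confidence intervals of the log2 differences reached from −0.74 (*Kcnd2*) to 0.62 (*Kcnq1*) in Doxo vs. Ctrl and from −0.40 (*Gja1*) to 0.86 (*Hcn4*) in Doxo-NMN vs. Doxo. Those of *Kcnd2*, *Kcnq1* and *Hcn4* in the first and of *Kcnd2* and *Hcn4* in the second include changes of over 1.5-fold.

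**Figure D5:**
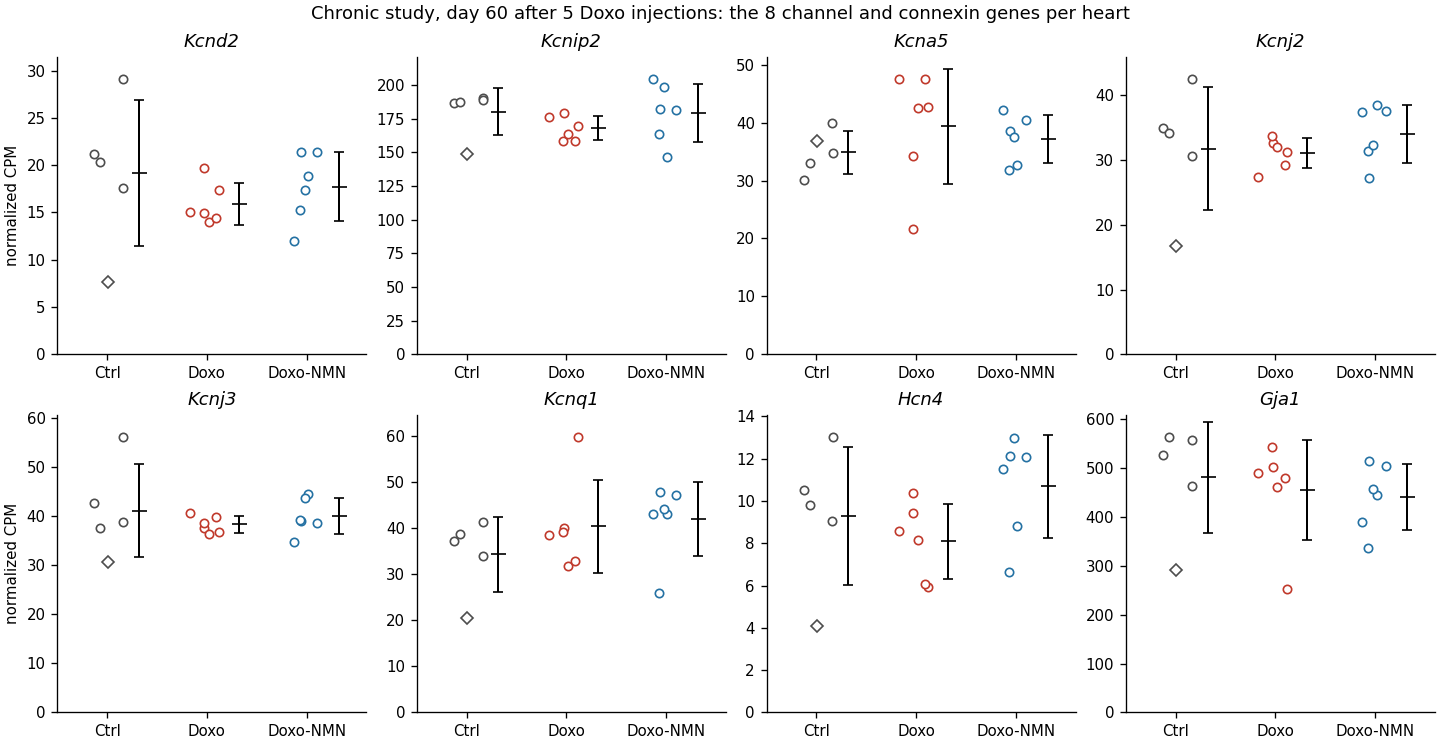
Normalized CPM (vertical axis, from 0) of the 8 members in each chronic heart, by group (Ctrl grey, 5 hearts; Doxo red, 6; Doxo-NMN blue, 6), with the mean ± SD as black bars. The diamond is Ctrl replicate 1, the lowest Ctrl heart for 7 of 8 members, and the 3 groups overlap for every member.

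Finally, the effects of Doxo in both studies were set against each other in a fit of their Ctrl and Doxo hearts with an interaction term. *Kcna5* was the only member that passed (acute minus chronic −1.09 on the log2 scale, SE 0.27, edgeR adjusted p = 0.00804), with an acute log2 fold change of −0.91 and a chronic one of 0.17. Of all tested genes 19.3% passed, and 8.33% did so with the lower value in the acute study. For *Kcnj2* (−0.75, adjusted p = 0.0648), *Kcnj3* (−0.96, adjusted p = 0.0767), *Hcn4* (−0.99, adjusted p = 0.086) and *Kcnd2* (−0.57, adjusted p = 0.124) the difference did not pass. Without acute Doxo replicate 6, 3 members passed: *Kcna5*, *Kcnj2* (−0.85, adjusted p = 0.0164) and *Hcn4* (−1.14, adjusted p = 0.0267). The share of all tested genes that passed without this heart was not computed, so this count has no reference. Skeletal muscle markers (*Acta1*, *Myh4*, *Myh1*, *Tnnt3*) summed to 52.9 to 477 CPM in acute Ctrl and 899 to 2642 CPM in chronic Ctrl hearts. *Myh4* averaged 577 ± 396 CPM in chronic Ctrl and 281 ± 110 CPM in chronic Doxo hearts, and at most 0.03 CPM in an acute group. Their part in the members' values was not tested. Dose schedule, day, age, supplier, sequencing site, atrial content and skeletal muscle marker RNA differed between the studies and cannot be told apart in this comparison.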

How the data were processed

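Heart RNA was sequenced from 40 acute and 17 chronic hearts, grouped by their labels; all were used. Per the submitters' processing notes, the authors mapped reads to mm10 with STAR 2.7.3a and counted reads per gene with featureCounts 2.0.0; the annotation release and the strand setting are not given in the sources used here. The deposited values are the authors' raw counts per gene, with no normalization. Total counts per heart had medians of 39727400 (acute) and 20531100 (chronic), and precision follows from them and from the number of hearts.

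From these counts, low-count genes were removed with filterByExpr by group, TMM factors were computed, and edgeR 4.0.16 (R 4.3.3) tested each comparison by its quasi-likelihood F-test in a joint fit of all 3 groups of that study. P-values were adjusted over all tested genes by the Benjamini-Hochberg method. A gene passed at an adjusted p under 0.05, and in the acute study was called if it also changed at least 1.5-fold. Log2 CPM for correlations used a prior count of 2. Exon lengths and gene positions come from GENCODE M21 (GRCm38), promoters from RefSeq. The method was tested on simulated counts.

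The members and lists were chosen with earlier results of these data known. Named in the text are all members, the 3 other family genes of lowest adjusted p per direction in acute Doxo vs. Ctrl and Doxo-NMN vs. Doxo, and the gene most correlated with each member. Some genes that this rule names are not reported here. Alternatives were DESeq2 1.42.0, RLE factors, no low-count filter, the replicate number as a block, the atrial level as a covariate, hearts below or above 100 CPM of *Myl4*, no fold cutoff, and leaving out hearts. Leaving out acute Doxo-NMN replicate 10 or chronic Ctrl replicate 1 (interaction), and the *Kcnip2* to *Kcnd2* ratio, were chosen after seeing the data. No pair of hearts of a group agreed within sampling noise (lowest chi-square per gene 10.4 acute and 5.49 chronic). Figures were drawn with matplotlib 3.10.9.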

Additional observations from a re-analysis of the deposited data

Results flagged for a closer look

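*Kcna5* is listed because its response to Doxo differed between the studies by the interaction test of edgeR (acute minus chronic −1.09 on the log2 scale, adjusted p = 0.00804).

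In the chronic study, where each of 24 combinations of member and group was checked for a heart far from the others, 4 had a wide gap between that heart and its nearest neighbour by Dixon's test; chance alone gives this in about 1 in 20 groups. *Gja1* had 253 CPM in Doxo replicate 2 against 461 to 543 CPM in the other Doxo hearts, and *Kcnq1* had 59.7 CPM in the same heart against 31.7 to 40 CPM. *Kcnip2* had 149 CPM in Ctrl replicate 1 against 186 to 190 CPM in the other Ctrl hearts. *Kcnq1* had 26 CPM in Doxo-NMN replicate 4 against 42.9 to 47.8 CPM. Doxo replicate 2 was the heart farthest along the axis from Ctrl to Doxo over all tested genes (2.10), and Doxo-NMN replicate 4 had the highest *Myl4* level of the chronic hearts (81.2 CPM). The part of these in the values was not tested.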

How the results depend on the processing

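The number of members called in acute Doxo vs. Ctrl was 5, all lower, under every alternative run. In Doxo-NMN vs. Doxo it was 3, but 6 with no fold cutoff, and 2 with the replicate block and within either set of hearts divided at 100 CPM of *Myl4*; in Doxo-NMN vs. Ctrl it was 0, and 2 with no fold cutoff or 1 among hearts with at least 100 CPM of *Myl4*. The number of members differing between the studies was 1, and 3 without acute Doxo replicate 6. For the other family genes in acute Doxo-NMN vs. Ctrl 9 were called, and 14 with no fold cutoff. In chronic hearts 0 members passed under every alternative run. Except for no fold cutoff, the share of all tested genes called was not computed for the alternatives, so their counts have no reference.

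Same-numbered acute hearts deviated together in 18 of 39 pairs (r over 0.1, median 0.06) and chronic hearts in 4 of 16. Without differently numbered pairs for reference, this cannot tell whether the numbers pair the hearts. With the replicate number as a block, 5, 2 and 0 members were called in the acute comparisons, with *Kcnj3* just under 1.5-fold (0.58), and *Kcnip2* no longer passed in Doxo-NMN vs. Doxo (0.29, adjusted p = 0.0504); no other call of a member changed.

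Signs changed only for values that had not passed. Among hearts under 100 CPM of *Myl4* these were *Kcnq1* in Doxo vs. Ctrl (−0.0891) and *Kcna5* in Doxo-NMN vs. Ctrl (−0.0945), where *Kcnd2* no longer passed (−0.34); among the other hearts *Kcnq1* in Doxo-NMN vs. Doxo (−0.19), where *Gja1* no longer passed against Ctrl (−0.17). With the atrial covariate *Kcnip2* was at −0.00256 (acute) and 0.00884 (chronic) in Doxo-NMN vs. Ctrl, and *Gja1* at −0.00122 in the interaction; *Kcnip2* was at 0.0207 there with RLE factors, and between −0.0412 and 0.0583 without acute Doxo replicate 6 or chronic Ctrl replicate 1. *Kcnj2* passed in Doxo-NMN vs. Doxo without Doxo-NMN replicate 10 (0.46, adjusted p = 0.0226).

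Leaving out chronic hearts in turn gave ranges that cross 0: in Doxo vs. Ctrl *Kcnj2* −0.196 to 0.0959, *Kcnj3* −0.193 to 0.0382 and *Gja1* −0.216 to 0.0441; in Doxo-NMN vs. Doxo *Gja1* −0.171 to 0.0179 and *Kcnq1* −0.00515 to 0.196; in Doxo-NMN vs. Ctrl *Kcnd2* −0.323 to 0.0811, *Kcnip2* −0.0744 to 0.0401, *Kcnj2* −0.0669 to 0.225 and *Kcnj3* −0.137 to 0.0940. The cause of these changes was not tested. With 5 or 6 hearts a group, chronic changes may go undetected, for the more variable members also some of over 1.5-fold.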
